A study of Mus musculus with 6 samples.

Results

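The H19 and Igf2 imprinted locus is taken here as the 120 kb of mouse chromosome 7 from 149750001 to 149870000 (build mm9), which hold the 3 genes H19, Igf2 and Ins2. The region rule used here placed H19 at 149761430 to 149764050 (2.62 kb), the H19 control region at 149766100 to 149768500 (2.4 kb), Igf2 at 149836600 to 149852800 (16.2 kb) and Ins2 near 149864500, taken as the 3 windows of 1 kb from 149863001 to 149866000. The locus makes up 120 of the 2416904 windows of 1 kb that held a read in any library. The members were set by position, and earlier results of these data were known when they were chosen. The 200 kb below the locus (the lower flank) and the 200 kb above it (the upper flank) served for comparison.

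H19 is a long non-coding RNA that is also the host of miR-675, and Igf2 encodes a growth factor that drives growth of the fetus and placenta. H19 is transcribed from the maternal copy and Igf2 from the paternal copy. The control region between them is known to be methylated on the paternal copy, while on the maternal copy the insulator protein CTCF binds it and separates Igf2 from enhancers on the far side of H19. Ins2, an insulin gene of pancreatic beta cells, is imprinted in the yolk sac. In embryonic stem (ES) cells, methylation of this locus is known to vary with culture.

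The series profiled mouse ES cells of the C57Bl/6 strain, kept in LIF (leukaemia inhibitory factor) with no feeder layer. It held 1 library of H2A.B ChIP with a home-made rabbit antibody, 3 libraries of 5-methylcytosine (5mC) MeDIP with antibody clone 33D3, 1 IgG ChIP library and 1 IgG MeDIP library, all from untreated cells of no stated genetic change. H2A.B is a variant form of the core histone H2A that is shorter at its tail end, and ChIP recovers the crosslinked DNA it sits on, whereas MeDIP recovers denatured DNA fragments that carry 5mC. IgG is a non-specific antibody that gives the background. The cells came from an inbred strain and the files list reads without alleles, so the parental copies cannot be told apart and every value is a sum over them. No RNA was measured, so the cell type was not checked against its marker genes.

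Distinct reads, counted once per 5′ position and strand, numbered 8053559 in the H2A.B library, against 539303 in that of IgG ChIP. The 5mC libraries held 1396972, 1893285 and 803580 in replicates 1, 2 and 3, against 124157 for IgG MeDIP. H2A.B and 5mC replicate 1 were read at 42 bp in lane 3 of a flow cell. 5mC replicate 2 and IgG MeDIP were read at 50 bp in lane 1 of another, and 5mC replicate 3 and IgG ChIP at 50 bp in its lane 2. Between H2A.B and IgG ChIP, then, antibody, flow cell and read length all change together and cannot be told apart. All 201263 IgG MeDIP reads also stood in the list of 5mC replicate 2 and were removed from it. As deposited, that list was 4 sorted lists joined end to end, the IgG reads being 1 of them, and that of replicate 3 was 3. Each list's reads came from a single lane, and what the joined lists stand for is not stated. Whether the 5mC replicates are separate cultures is not stated in the labels, so their spread may be technical. H2A.B and the IgG libraries had no replicates. Intervals below are exact (95%) and cover counting error only, since they hold no spread between libraries. They are Clopper-Pearson intervals, except where a ratio to the flanks is set over that of IgG. There the value and its interval are those of a conditional odds ratio. PCR copies also cannot be told from separate molecules by position alone.

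The cytosines that carry 5mC in most mouse cells stand before a guanine, and the density of such CG pairs sets how much 5mC a fragment can hold. RefSeq's promoter table (GRCm38.p6, 250 bases before to 50 after each start) was matched for 1 of the 3 genes, Igf2, with 4 start sites. H19 and Ins2 are named only. The Igf2 starts, numbered from the highest coordinate down since the gene runs on the minus strand, held 2, 14, 24 and 7 CG pairs, against a median of 7 over 32851 promoters. At least as many pairs were found in 85.9%, 36.3%, 20% and 52.1% of all promoters. The starts with the fewest and the most CG pairs are shown to let this contrast be read directly, 5′ to 3′ on the minus strand, with each CG pair (the same letters on both strands) in capitals. They are at chr7:142666767-142667066 and chr7:142658755-142659054. These positions are of another build than the reads, so no read was placed on them.
Igf2 start 1: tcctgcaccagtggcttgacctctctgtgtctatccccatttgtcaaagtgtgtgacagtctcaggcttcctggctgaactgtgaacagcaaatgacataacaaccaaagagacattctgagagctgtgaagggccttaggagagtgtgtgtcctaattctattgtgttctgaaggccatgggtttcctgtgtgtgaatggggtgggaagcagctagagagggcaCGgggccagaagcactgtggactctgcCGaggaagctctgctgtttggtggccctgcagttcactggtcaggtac
Igf2 start 3: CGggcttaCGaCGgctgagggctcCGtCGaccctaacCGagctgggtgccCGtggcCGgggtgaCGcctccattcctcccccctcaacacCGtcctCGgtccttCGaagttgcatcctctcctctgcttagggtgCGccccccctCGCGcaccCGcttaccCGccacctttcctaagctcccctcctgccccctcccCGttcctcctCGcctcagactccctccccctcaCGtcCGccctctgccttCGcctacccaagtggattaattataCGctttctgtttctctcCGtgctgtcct

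The H19 transcript carries the miR-675 hairpin, whose mature strands are printed below from RefSeq (GRCm38.p6) because they are the part of H19 with a known product; capitals mark the seed, bases 2 to 8. The seeds of the strands differ. No small RNA was measured.
mmu-miR-675-5p: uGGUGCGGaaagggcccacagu
mmu-miR-675-3p: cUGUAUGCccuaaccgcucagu

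H2A.B covered the locus nearly evenly, and no gene stood above the lower flank beyond counting error. Across the 120 kb it gave 610 distinct reads, or 75.7 CPM (counts scaled to each library's total of distinct reads), against 32 reads and 59.3 CPM in IgG ChIP. The ratio of these levels was 1.28 (0.895 to 1.88), which falls short of the rule used for a higher window (a ratio of at least 1.5 with a lower bound above 1). Of 21338 genome windows of the length of the locus, 2227 (10.4%) passed the rule and 2220 passed its mirror image, so the rule was met about as often in either direction. Divided by the median ratio of its 5 Mb segment, the value at the locus was 0.874 (0.612 to 1.29). With all reads counted it was 1.49 (1.06 to 2.14), whose lower bound clears 1 but which still misses 1.5. In that setting 16.8% of windows passed the rule and 11.2% its mirror image, so the directions were no longer balanced. The H2A.B level was above that of 90.3% of the genome windows, and the IgG ChIP level above that of 83.2%. Both libraries were thus above their own median window here, H2A.B by 1.83-fold and IgG ChIP by 1.39-fold.

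**Figure D1:**
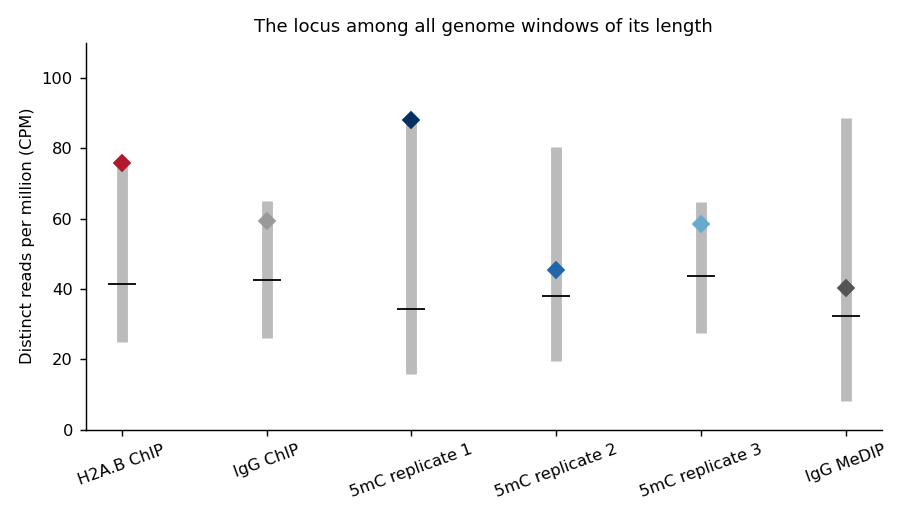
The level of the whole locus (diamonds, in CPM, distinct reads scaled to the library total) in each library beside the 10th to 90th percentile (grey bars) and the median (black lines) of all genome windows of the same length. The locus lies above the median in each of the 6 libraries, at 75.7 CPM in H2A.B, 59.3 in IgG ChIP, 88, 45.4 and 58.5 in the 5mC replicates and 40.3 in IgG MeDIP.

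Within the H2A.B library the locus had the density of its lower flank and more than its upper flank. It held 5.08 reads per kb, against 5.07 in the lower flank and 2.73 in the upper flank. The lower flank held 1.86 (1.67 to 2.07) times the reads of the upper flank, a step that IgG ChIP did not show (1.05, 0.668 to 1.65). Against the flanks together the locus ratio was 1.31 (1.19 to 1.43) in H2A.B and 1.27 (0.818 to 1.93) in IgG ChIP, so that the H2A.B ratio over the IgG ratio was 1.03 (0.668 to 1.61). Against the lower flank alone the H2A.B ratio was 1 (0.906 to 1.11), and against the upper flank alone 1.87 (1.66 to 2.1).

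Among the 4 placed elements the H19 control region, the insulator between the genes, had the most H2A.B per kb. It held 18 H2A.B reads (7.5 per kb) and 2 IgG ChIP reads. Its ratio to the flanks was 1.92 (1.14 to 3.05) in H2A.B and 3.97 (0.473 to 14.8) in IgG ChIP, and the H2A.B ratio divided by the IgG ratio was 0.486 (0.113 to 4.38). Against the lower flank alone the H2A.B ratio was 1.48 (0.874 to 2.35), which no longer clears 1. Of genome windows of the same length, 4.02% held at least as many H2A.B reads and 8.96% at least as many IgG ChIP reads.

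The genes themselves followed, with 5.72 H2A.B reads per kb at H19 (15 reads), 5.12 at Igf2 (83 reads) and 5 at Ins2 (15 reads). Their ratios to the flanks were 1.47 (0.82 to 2.43) at H19, 1.32 (1.04 to 1.64) at Igf2 and 1.28 (0.717 to 2.12) at Ins2. The intervals of all 4 elements overlapped, so their order is not resolved at this depth. Igf2, the growth factor gene, was the one gene whose interval cleared 1, and against the lower flank alone its ratio was 1.01 (0.799 to 1.27). IgG ChIP had 0 reads at H19, 4 at Igf2 (ratio 1.18, 0.313 to 3.12) and 0 at Ins2. The counts of 0 allow a ratio to the flanks of up to 6.85 at H19 and 5.99 at Ins2. Along Igf2, the 5.4 kb pieces from low to high coordinate held 30, 31 and 22 H2A.B reads.

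The stretches between the elements had like H2A.B densities, from 3.9 reads per kb between H19 and its control region to 5.59 between Igf2 and Ins2. The longest of them, the 68.1 kb between the control region and Igf2, held 341 reads (5.01 per kb), at a ratio to the flanks of 1.29 (1.14 to 1.45) in H2A.B and 1.33 (0.762 to 2.21) in IgG ChIP. In 1 kb windows H2A.B ranged from 0 to 12 reads with a median of 5, against a genome median of 3. At the genome 99th percentile of 12 reads stood 3 of the 120 windows (2.5%), against 1.18% of all windows. These were 149769001 to 149770000 and 149773001 to 149774000, both above the control region, and 149852001 to 149853000, at the upper end of Igf2, each with 12 reads. Next came 149840001 to 149841000 in the low-coordinate part of Igf2 with 11 and then 4 windows tied at 10. The lowest of these in coordinate, 149766001 to 149767000 at the control region, is counted as the fifth, and the others start at 149801001, 149846001 (in Igf2) and 149860001. IgG ChIP had 0 reads in the 4 windows above 10 reads and 1 read in the fifth. It reached its own 99th percentile of 2 reads in 3 windows of the locus, against 2.23% of all windows.

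**Figure D2:**
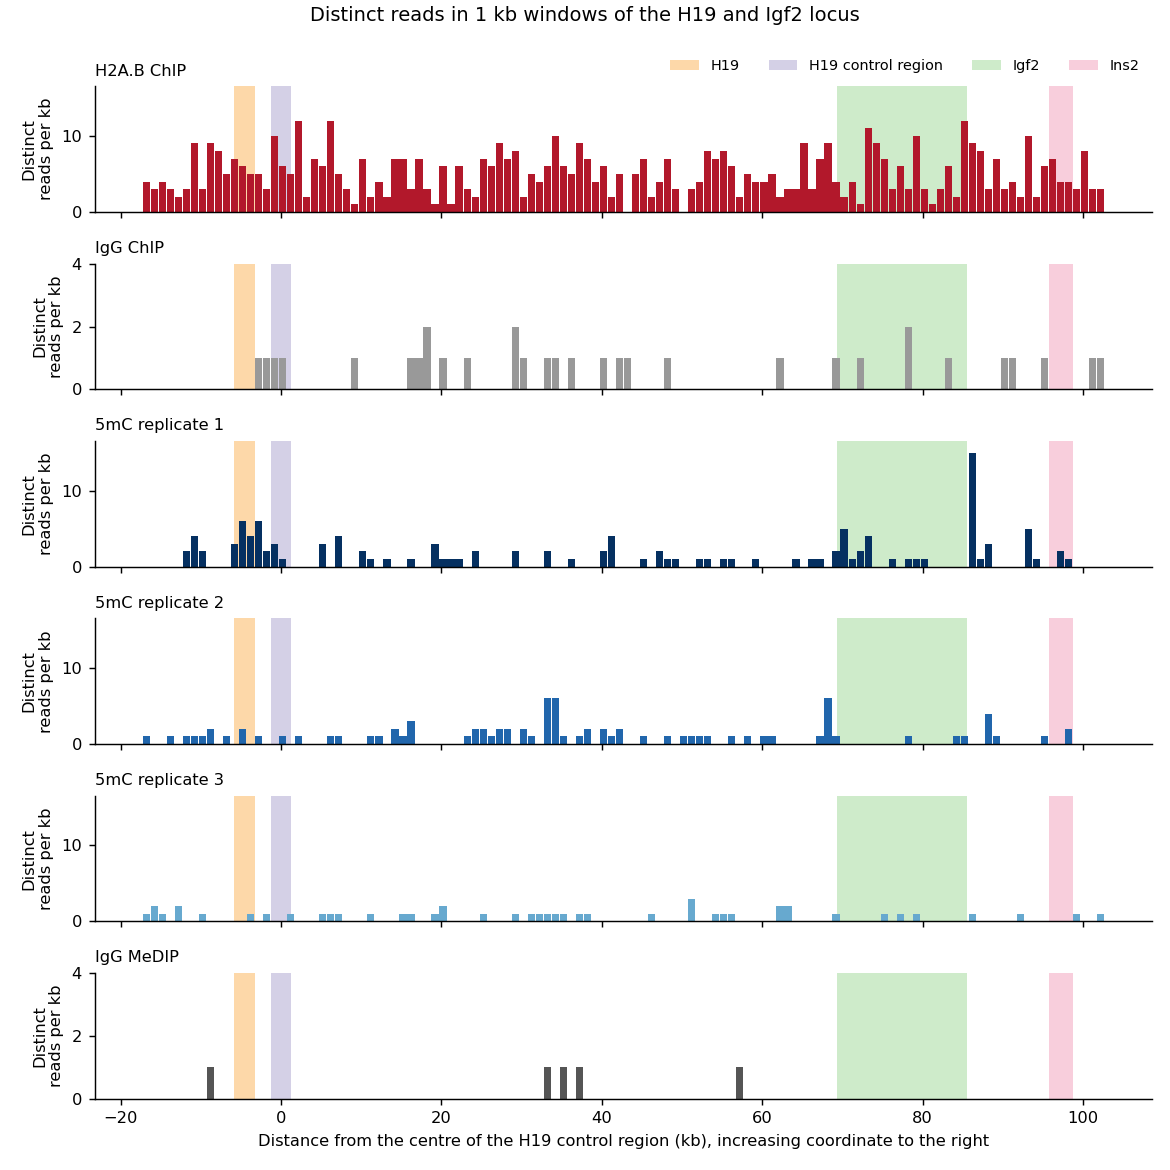
Distinct reads in each 1 kb window of the locus, by library, against the distance from the centre of the H19 control region in kb; shaded bands mark H19, the control region, Igf2 and Ins2, and the IgG panels have a smaller vertical range. H2A.B bars run from 0 to 12 along the whole locus, while those of 5mC replicate 1 rise around H19 and reach 15 in 1 window just above Igf2.

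5mC over the whole locus could not be told from IgG MeDIP at this depth. The locus gave 123, 86 and 47 distinct reads in 5mC replicates 1, 2 and 3 and 5 in IgG MeDIP. As CPM these were 88, 45.4 and 58.5, with a mean of 64 ± 21.8 (SD, n = 3), against 40.3 in IgG MeDIP. The IgG value lies below each replicate, and its 5 reads carry a wide counting error, since 3 reads in that library are worth 24.2 CPM. In edgeR's quasi-likelihood test over all 21338 windows, with the IgG library taken to vary like the 5mC libraries, the log2 difference was 0.47 ± 0.81 (SE), with a Benjamini-Hochberg adjusted p of 0.999. The test called 0 windows (0%), and at an unadjusted p below 0.05 it had 872 windows higher and 257 lower. DESeq2 also called 0, whereas limma on log2 CPM called 2279 higher and 234 lower and gave the locus 0.43 with an adjusted p of 0.581. Over all the alternative settings the adjusted p of the locus ran from 0.581 to 1. Among the libraries of the second flow cell alone, that is without 5mC replicate 1, the difference was 0.0665 with an edgeR adjusted p of 1.

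Against its own flanks the locus held a mean of 1.2 ± 0.23 times the 5mC density (SD, n = 3). The ratios were 1.32 (1.06 to 1.63), 0.937 (0.729 to 1.19) and 1.35 (0.941 to 1.91) in 5mC replicates 1, 2 and 3, against 1.28 (0.358 to 3.83) in IgG MeDIP. The summed 5mC reads gave 1.16 (1.01 to 1.34), and this ratio over that of IgG MeDIP was 0.908 (0.3 to 3.29). The flank chosen turned the direction, since the summed ratio was 0.871 (0.746 to 1.01) against the lower flank alone and 1.76 (1.47 to 2.1) against the upper. Against the lower flank replicates 1, 2 and 3 stood at 0.953, 0.689 and 1.17. As with H2A.B, the lower flank held more 5mC reads than the upper, 2.24, 2.12 and 1.37 times as many in replicates 1, 2 and 3, although the interval of replicate 3 (0.932 to 2.02) holds 1. IgG MeDIP gave 1.6 (0.462 to 6.22). With 3 libraries set against their own flanks an exact sign-flip test cannot go below p = 0.25, so no p is given for these ratios.

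At H19, the maternally transcribed RNA gene, 5mC reads were dense in replicate 1. Replicates 2 and 3 held few reads, and both their intervals overlapped that of replicate 1. Overlap alone does not settle whether replicates differ, and they were not tested against each other. Replicate 1 held 13 reads in the 2.62 kb, where 2.04 would match its flanks, and replicates 2 and 3 held 2 and 1, against 0 in IgG MeDIP. The ratios to the flanks were 6.38 (3.36 to 11.1), 0.997 (0.12 to 3.63) and 1.32 (0.033 to 7.48), with a mean of 2.9 ± 3.02 (SD, n = 3), so the spread between replicates exceeds the mean. The summed reads gave 3.33 (1.89 to 5.45), and 13 of their 16 reads came from replicate 1. Without replicate 1 the mean of the other ratios was 1.16. Of genome windows of this length, 0.794% held at least as many reads in replicate 1, 40.5% in replicate 2 and 51.7% in replicate 3. H2A.B, sequenced in the same lane as replicate 1, had a ratio of 1.47 (0.82 to 2.43) at H19, and the part that lane or read length played in the replicate 1 value was not tested.

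The 5mC reads of replicate 1 went on between H19 and the control region. Fewer stood over the control region itself, 3 against 9, but the intervals of these stretches overlapped and a drop was not tested. The 2.05 kb between them held 9, 1 and 1 reads in replicates 1, 2 and 3 and 0 in IgG MeDIP, at ratios to the flanks of 5.65 (2.56 to 10.9), 0.638 (0.0161 to 3.58) and 1.68 (0.0422 to 9.56). The control region, whose paternal copy is known to carry methylation, held 3, 1 and 0 reads, against 0 in IgG MeDIP. Its ratios were 1.61 (0.33 to 4.74) and 0.544 (0.0137 to 3.06) in replicates 1 and 2, and replicate 3 with 0 reads allows up to 5.38. The mean was 0.717 ± 0.817 (SD, n = 3), and the summed reads gave 0.909 (0.247 to 2.34). At 4 reads in all, a difference of the control region from its flanks was not detectable at this depth.

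**Figure D3:**
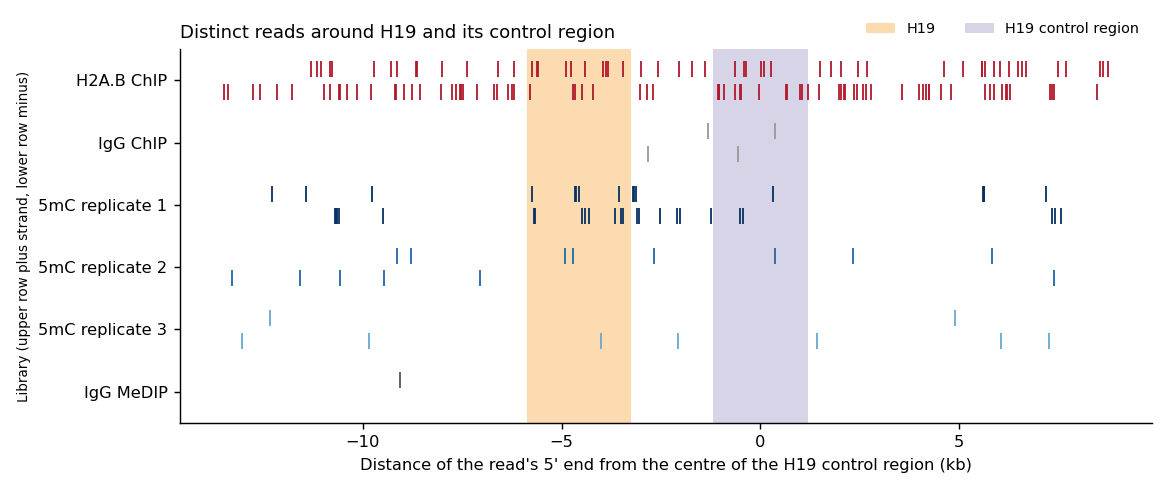
Position of each distinct read's 5′ end around H19 and its control region (shaded), by library, in kb from the centre of the control region; each tick is a read, plus strand above minus strand. In 5mC replicate 1, 13 ticks fall in H19, 9 between H19 and the control region and 3 in the control region, against 2, 1 and 1 in replicate 2 and 1, 1 and 0 in replicate 3, and IgG MeDIP has 0 in each.

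From the start of H19 to the end of the control region, 7.07 kb, the ratios to the flanks were 4.55 (2.9 to 6.84) in replicate 1, 0.739 (0.2 to 1.91) in replicate 2 and 0.975 (0.117 to 3.6) in replicate 3. The replicate 1 and replicate 2 intervals did not overlap, while the replicate 3 interval overlapped both. The replicates also differed in their maxima outside the genes. In 5mC replicate 1, the 1 kb window 149853001 to 149854000, just above the upper end of Igf2, held 15 reads, against 0 and 1 in replicates 2 and 3 and 0 in IgG MeDIP. Those 15 positions (19 reads before collapsing) lay between 149853501 and 149853970, 4 on the plus and 11 on the minus strand, and 0.117% of genome windows held as many in that library. H2A.B had 9 reads in this window and IgG ChIP 0. The most reads of replicate 2 in a window were 6, in 3 windows. In 149800001 to 149801000 replicates 1 and 3 held 2 and 1 and IgG MeDIP 1 of its 5 reads, in the adjoining 149801001 to 149802000 replicates 1 and 3 held 0 and 1, and in 149835001 to 149836000, just below Igf2, both held 0.

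Igf2 held 17, 3 and 4 reads in 5mC replicates 1, 2 and 3 and 0 in IgG MeDIP. The ratios to the flanks were 1.35 (0.776 to 2.2), 0.242 (0.0496 to 0.714) and 0.851 (0.228 to 2.24), with a mean of 0.814 ± 0.555 (SD, n = 3), and the summed reads gave 0.808 (0.515 to 1.21). Replicate 2 was below its flanks beyond counting error, and the other replicates were not. Against the upper flank alone the replicate 2 ratio was 0.378 (0.0766 to 1.14), which holds 1. In replicate 1 the reads fell from low to high coordinate along the gene, an order that replicates 2 and 3 did not share. The 5.4 kb at low coordinate held 13, 0 and 1 reads in replicates 1, 2 and 3, the middle 5.4 kb held 4, 1 and 3, and the 5.4 kb at high coordinate held 0, 2 and 0. Summed, the high-coordinate piece stood at 0.202 (0.0244 to 0.733) of the flank density on 2 reads, both of replicate 2. Against the upper flank alone it stood at 0.305 (0.0367 to 1.11), which holds 1. The low-coordinate piece stood at 1.41 (0.77 to 2.39), to which replicate 1 gave 13 of 14 reads.

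Ins2, the insulin gene, held 3, 2 and 0 reads in 5mC replicates 1, 2 and 3 and 0 in IgG MeDIP. The ratios were 1.29 (0.264 to 3.79) and 0.871 (0.105 to 3.18) in replicates 1 and 2, and the 0 of replicate 3 allows up to 4.31. The mean was 0.719 ± 0.656 (SD, n = 3), and the summed reads gave 0.91 (0.294 to 2.13). None of the 3 replicates departed from its flanks at Ins2 beyond counting error. The 10.2 kb between Igf2 and Ins2, which include the maximum above Igf2, had ratios of 3.15 (2.01 to 4.74), 0.769 (0.28 to 1.69) and 0.676 (0.0809 to 2.5). In the 68.1 kb between the control region and Igf2 the ratios were 0.85 (0.607 to 1.16), 1.21 (0.907 to 1.59) and 1.52 (0.981 to 2.29). Replicate 1, the highest of the 3 at H19 and above Igf2, was the lowest of the 3 there.

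**Figure D4:**
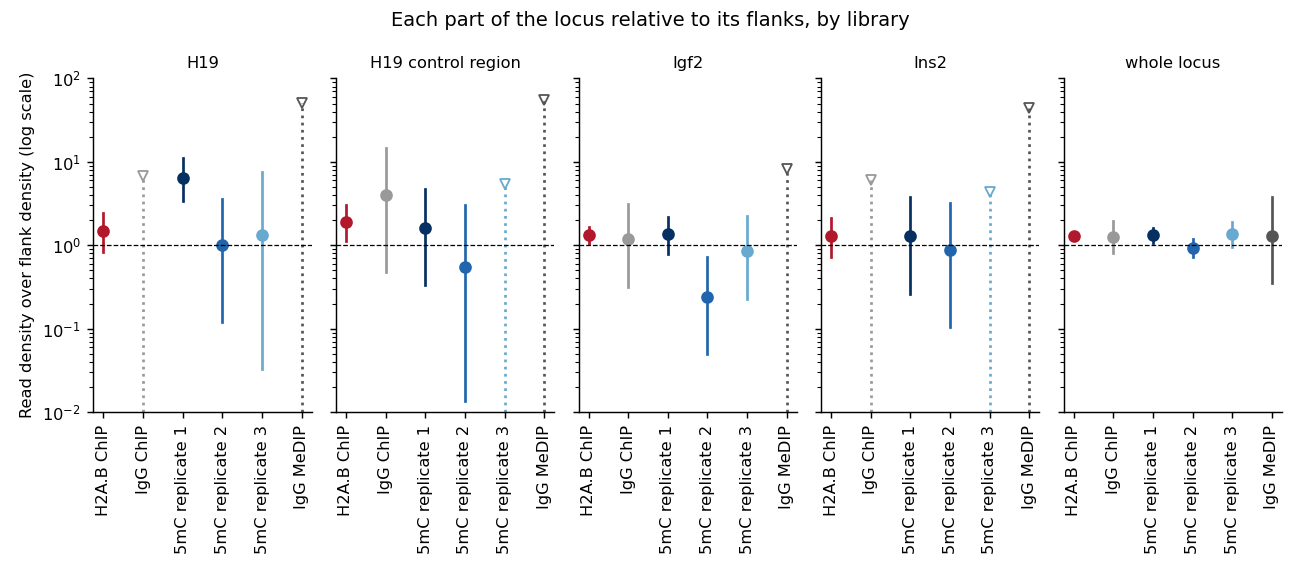
Read density of each element over that of its flanks (log scale) by library; points are ratios, bars exact 95% intervals, and open triangles with dotted lines mark the upper limit where a library had 0 reads. 5mC replicate 1 stands at 6.38 at H19, while H2A.B lies between 1.28 and 1.92 in the 4 elements and at 1.31 over the whole locus.

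Summed over the replicates, H19 had the most 5mC reads per kb (6.1), and the control region (1.67), Ins2 (1.67) and Igf2 (1.48) followed with overlapping intervals, against 1.83 in the flanks. In 1 kb windows, 5mC replicates 1, 2 and 3 reached their genome 99th percentile (6, 6 and 2 reads) in 3, 3 and 6 of the 120 windows. Across the genome 1.14%, 1.28% and 4.53% of windows did so. The summed 5mC reads reached theirs (12) in 1 window, against 1.05% of all windows, and IgG MeDIP its own (1 read) in 5, against 3.85%. The window above Igf2 with 16 summed reads was that window. After it came 149800001 to 149801000 with 9, 149762001 to 149763000 in H19 with 8 (6, 2 and 0 in replicates 1, 2 and 3), then 149764001 to 149765000 beside H19 and 149801001 to 149802000 with 7 each. The window 149855001 to 149856000, between Igf2 and Ins2, also had 7 (3, 4 and 0 in replicates 1, 2 and 3).

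Within the locus and its flanks H2A.B had 2168 read positions and 5mC replicate 1 had 434 and 4 were shared, a count from which nothing is read, since both libraries sample few of the positions. H2A.B shared 2 positions with 5mC replicate 2 and 1 with replicate 3. By reads per kb the control region came first of the 4 elements in H2A.B, and H19 came first in each 5mC replicate, on 2 reads in replicate 2 and 1 in replicate 3. The other genes of the insulin-like growth factor pathway (Igf1, Igf1r, Igf2r, Ins1, Insr, Irs1, Irs2, the Igfbp and the Igf2bp genes) were not placed on mm9 and are not analysed here.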

How the data were processed

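The deposited files list aligned reads, and the counts are lines of these lists per region; the authors aligned the reads with Bowtie to mm9 and checked them with FastQC, per the submitters' processing notes without versions. Settings and the treatment of reads with several matches were not given in the sources used here. The deposited score column was constant and went unused. In 1 label field both IgG libraries carry the H2A.B antibody; their titles and antibody field say IgG, which was followed. 9 malformed lines, 1 in H2A.B and 8 in 5mC replicate 1, were left out.

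From these lists, each 5′ position and strand counted once, on chromosomes 1 to 19, X and Y, after removing from 5mC replicate 2 the reads that IgG MeDIP also held. Distinct positions made up 86.9% of reads in H2A.B, 68.1% in IgG ChIP, 39.9%, 47.1% and 52.5% in the 5mC replicates and 64.2% in IgG MeDIP. Densities were set against 200 kb on each side, with Clopper-Pearson intervals. Ratios to the flanks were set over those of IgG as conditional odds ratios with exact intervals. Genome windows of 120 kb were tiled so that the locus is 1 of them; 18 of 21407 were left out for low counts (mean CPM under 25% of the median) and 51 for high counts (over 10 times a library's median). Tests used edgeR 4.0.16 (TMM, quasi-likelihood, two-sided, Benjamini-Hochberg threshold 0.05), limma 3.58.1 (log2 CPM) and DESeq2 1.42.0 in R 4.3.3. For limma, the same CPM was added to every library before the log2, equal to 0.5 reads in the smallest library, IgG MeDIP. The edgeR step was run on simulated data with changes larger than the locus difference. That run cannot show whether a difference of the size seen at the locus would be called. The 4 placed elements are all described, and the 5 windows of 1 kb with the most H2A.B reads and with the most summed 5mC reads are named. The members, lists and tests were chosen with earlier results of these data known. The alternatives were all reads, other flanks, shifted positions, other lists of replicate 2, other windows and other tests. Neither sequence nor annotation of mm9 was used.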

Additional observations from a re-analysis of the deposited data

How the results depend on the processing

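Of 106 values recomputed under an alternative setting other than leaving out a replicate, 91 kept their direction and their side of the threshold or moved by less than their error, 14 moved and 1 reversed. The choice of flank moved some of them: against the lower flank alone the H2A.B ratio was 1.01 at Igf2 and 1 over the locus and the 5mC mean 0.937 over the locus, and against the upper flank alone they were 1.88, 1.87 and 1.73. With the nearest 100 kb of each flank the H2A.B ratio of the locus was 1.45. A flank ratio counted as kept while it stayed within its main interval (H2A.B) or the SD between replicates (5mC), even where it crossed 1. At H19 and the control region that SD exceeded the mean. Such crossings were the 5mC means against the upper flank alone, at 1.15 for the control region, 1.19 for Igf2 and 1.15 for Ins2. Their main values were 0.717, 0.814 and 0.719. The H2A.B ratio at Ins2 fell from 1.28 to 0.987 against the lower flank alone. The H2A.B to IgG ratio of the locus was 0.874 after division by its 5 Mb segment and 1.49 with all reads. The 5mC difference from IgG MeDIP was -0.0161 (log2, edgeR adjusted p 0.993) with the 5mC libraries thinned to the IgG depth, and the cause was not tested. Limma called 2513 windows where edgeR called 0. With all reads, windows at the 99th percentile numbered 5, 1, 1 and 2 in 5mC replicates 1, 2, 3 and their sum, and 1 in IgG ChIP. Leaving out each 5mC replicate gave means of 1.16 to 3.85 at H19, 0.272 to 1.08 at the control region, 0.547 to 1.1 at Igf2, 0.436 to 1.08 at Ins2 and 1.13 to 1.33 over the locus, and 0.0665 to 0.658 for the log2 difference from IgG MeDIP; the lowest H19 mean and log2 difference were without replicate 1. No paired analysis was possible because only the 5mC group has more than 1 library. Depth limits every value at the control region and Ins2, where the 5mC libraries held 4 and 5 reads together.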

Other observations

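A few positions collected many copies before reads were collapsed. In 5mC replicate 3, 28 of the 85 reads of the locus stood at the position 149830288, and in 5mC replicate 2, 7 of 121 stood at 149835494, both between the control region and Igf2. No other library had more than 3 reads at a position of the locus. IgG MeDIP held 5 reads at 5 positions.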
